A study of Mus musculus with 3 samples.

Results

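The 10 genes described here, Gfra1, Ret, Zbtb16, Etv5, Id4, Lin28a, Sall4, Nanos3, Kit and Sohlh1, are known factors of spermatogonial stem cells, of the progenitors they give rise to and of the first differentiating spermatogonia. They were chosen by symbol among the 32285 gene rows of the deposited matrices, and all 10 symbols were found, each on 1 row. The study profiled single cells of adult mouse testis with a 10x Genomics 3′ assay, which counts messenger RNA molecules by their unique molecular identifiers (UMIs) in each barcoded cell. It asked what Tex10 does in spermatogenesis in the animal. There were 3 libraries of strain C57BL/6N. Wildtype replicate 1 and wildtype replicate 2 came from 1 wildtype mouse each. The third library held the pooled cells of 2 mice whose genotype is given as conditional Tex10 knockout, and is called here the library labelled knockout. Which Cre line was used and which exons were removed is not in the labels, and the age is given only as adult. With 1 library in that group no value has a replicate check, so no p-value is given, and the intervals quoted (95%, exact Poisson for levels, exact binomial for shares) cover counting error only.

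Spermatogonial stem cells lie on the basement membrane of the seminiferous tubule and are held there by GDNF, a growth factor from Sertoli and peritubular cells that binds the co-receptor GFRA1 and signals through the receptor tyrosine kinase RET. ETV5 is a transcription factor downstream of that signal, ID4 an inhibitor of basic helix-loop-helix factors, ZBTB16 (PLZF) and SALL4 are zinc-finger transcription factors of undifferentiated spermatogonia, and LIN28A and NANOS3 are RNA-binding proteins of progenitors. Retinoic acid then drives differentiation, at which KIT, the receptor for the KIT ligand of Sertoli cells, appears. SOHLH1 is a basic helix-loop-helix factor that acts with SOHLH2 at this step.

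All 10 genes lie on different stretches of the genome. On GRCm38, by GENCODE M21 gene models, Gfra1 (ENSMUSG00000025089) spans chr19:58235604-58455909 on the minus strand and Ret (ENSMUSG00000030110) chr6:118151745-118197718, also minus. Kit (ENSMUSG00000005672) spans chr5:75574916-75656722 on the plus strand, Nanos3 (ENSMUSG00000056155) chr8:84173731-84185217 on the minus strand, and Sohlh1 (ENSMUSG00000059625) chr2:25842995-25847248 on the minus strand. The promoter table from RefSeq on GRCm38.p6 held 7 of the 10 genes, all but Ret, Zbtb16 and Sall4. The 250 bases before the RefSeq start of 4 genes are shown, picked after their values were seen, because Gfra1, Nanos3 and Sohlh1 were highest and Kit lowest in the same group of spermatogonia described below. RefSeq and GENCODE differ in the start of 3 of them: the windows of Gfra1 and Nanos3 lie wholly, and that of Kit partly, inside the GENCODE span given above. Each is printed 5′ to 3′ on the gene's own strand, in lower case. Capitals mark the E-box CANNTG, the letters that basic helix-loop-helix factors such as SOHLH1 bind, and GGAAGT, a core of the sites that ETS factors such as ETV5 bind, searched on both strands.
Gfra1, chr19:58455399-58455648, minus strand: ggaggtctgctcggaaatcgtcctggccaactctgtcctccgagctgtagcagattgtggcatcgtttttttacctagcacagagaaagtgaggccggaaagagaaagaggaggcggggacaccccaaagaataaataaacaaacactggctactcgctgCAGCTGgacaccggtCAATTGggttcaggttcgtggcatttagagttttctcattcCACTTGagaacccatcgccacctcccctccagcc
Nanos3, chr8:84176553-84176802, minus strand: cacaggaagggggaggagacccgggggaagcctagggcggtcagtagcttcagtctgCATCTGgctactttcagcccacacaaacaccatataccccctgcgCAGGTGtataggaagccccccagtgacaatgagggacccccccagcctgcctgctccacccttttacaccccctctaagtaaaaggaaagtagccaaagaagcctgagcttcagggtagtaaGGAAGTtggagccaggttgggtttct
Kit, chr5:75574737-75574986, plus strand: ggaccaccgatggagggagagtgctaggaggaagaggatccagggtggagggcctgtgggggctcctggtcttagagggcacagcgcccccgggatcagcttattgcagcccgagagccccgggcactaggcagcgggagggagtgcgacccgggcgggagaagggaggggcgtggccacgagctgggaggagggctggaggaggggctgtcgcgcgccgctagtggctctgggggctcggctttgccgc
Sohlh1, chr2:25847249-25847498, minus strand: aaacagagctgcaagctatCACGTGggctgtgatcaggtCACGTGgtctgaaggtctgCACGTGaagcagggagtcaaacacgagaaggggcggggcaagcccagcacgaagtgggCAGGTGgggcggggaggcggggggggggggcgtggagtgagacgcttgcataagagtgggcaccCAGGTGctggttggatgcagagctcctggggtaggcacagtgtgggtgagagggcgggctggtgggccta
The Sohlh1 window held 5 E-boxes, of which 3 read CACGTG, the Gfra1 window 3 and the Nanos3 window 2 together with 1 GGAAGT. Neither pattern was found in the Kit window. Id4, Lin28a and Etv5 were also highest in that group of spermatogonia, and their windows are not shown. Those of Id4 and Lin28a held neither pattern, as in Kit. Of the Etv5 windows, 1 held 2 E-boxes and no GGAAGT, and the other 1 GGAAGT and no E-box. The patterns thus did not separate Kit from the genes highest in that group. Of 32851 promoter windows of this length, 66.2% held CANNTG, 6.02% CACGTG and 19.7% GGAAGT. A match describes the letters and is not a bound site.

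The libraries held 9967 to 12918 barcodes and 93418341 to 147783171 UMIs, the library labelled knockout being the deepest. After filtering, 7484, 7671 and 11053 cells were kept in wildtype replicate 1, wildtype replicate 2 and the library labelled knockout, the order used for every set of 3 values below. Any pair of libraries shared 27 to 30 barcodes. Of the kept cells, 56.7%, 42.5% and 65.7% lay in clusters of very few UMIs and were put in no class. Classes were named from marker genes after clustering without the 10 genes, so each is a spermatogonia-like or spermatocyte-like group, and differences from the study's own cell types may come from these rebuilt names. Tex10 itself stood at 143, 125 and 131 counts per 1000000 UMIs (CPM) in spermatogonia-like cells. Its level in the library labelled knockout lay between those of the wildtype libraries, and since the deleted part is not given, a 3′ count may lie outside it and checks nothing.

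The spermatogonia-like class held 222, 310 and 236 cells, 2.97%, 4.04% and 2.13% of the kept cells, with a median of 11082, 8416 and 14626 UMIs per cell. It was 1 cluster, and each of its 10 markers had UMIs in each library. The summed level of that marker list was 1730, 1790 and 1743 CPM. Markers of early spermatocytes summed to 1419, 1480 and 1414 CPM in the same cells, and those of elongating spermatids to 5394, 6127 and 5757 CPM. Macrophage markers summed to at most 4.53 CPM, with 2 to 6 of 7 at 0. The part of this other RNA in the values below was not tested, and in these sums of cells fewer expressing cells and less RNA per cell cannot be told apart.

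Of the 10 genes, 8 were highest in spermatogonia-like cells among the 5 germ cell classes in each library, all but Etv5 and Id4. Of the 19321 genes that reached 1 CPM in a class of any library, 27.6% were. Levels are given per gene and are not compared between genes, because 3′ capture differs from gene to gene.

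Of the GDNF receptor genes, Ret was at 2.64 (7 UMIs), 5.39 (16) and 6.39 CPM (24) in spermatogonia-like cells. In early spermatocytes it had 0 UMIs in each library, and in late spermatocytes 10, 4 and 1 UMIs, or 0.385, 0.196 and 0.0324 CPM. Ret was thus rare, and outside spermatogonia-like cells it stayed at 0.385 CPM or less in germ cells. Gfra1 was at 3.02 CPM (interval 1.30 to 5.95) from 8 UMIs, 3.03 CPM (1.39 to 5.76) from 9 and 6.39 CPM (4.09 to 9.51) from 24. Its next class was late spermatocytes, with 3.0, 2.45 and 0.876 CPM and intervals of 2.37 to 3.75, 1.82 to 3.23 and 0.577 to 1.27. In both wildtype libraries the intervals of the 2 classes overlapped, so spermatogonia-like cells and late spermatocytes could not be put in order for Gfra1 there. The library labelled knockout had the highest Gfra1 level in spermatogonia-like cells and the lowest in late spermatocytes. The gene overlaps an antisense gene model, Gm16277, and whether counting used the strand is not given in the sources used here, so the low Gfra1 counts outside spermatogonia are uncertain.

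Among the transcription factors, Zbtb16 was at 36.2, 33.7 and 47.6 CPM in spermatogonia-like cells, and at 0.50, 1.08 and 0.908 CPM in late spermatocytes, the next class. That is 72.5, 31.3 and 52.5 times as much in the spermatogonia-like cells. Sall4 was at 51.0, 43.8 and 46.6 CPM, against 0.303 CPM or less in every other germ cell class of each library. It had 0 UMIs in Sertoli-like, Leydig-like and peritubular myoid-like cells of each library. A count of 0 allows up to 13.1, 18.2 and 3.57 CPM in Sertoli-like and 30.3, 8.86 and 2.23 CPM in Leydig-like cells. Sall4 thus had very few counts in germ cells outside the spermatogonia-like class. Gene models on the other strand overlap Sall4 (Gm14261) and Lin28a (Gm13061), and their part in the counts was not tested. Sohlh1 was at 133, 128 and 135 CPM, which was 24.6, 12.8 and 24.8 times the next class.

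Early spermatocytes were the class with the next highest Sohlh1 level, 5.42, 10.0 and 5.45 CPM from 23, 38 and 36 UMIs, most of it in 1 of their 2 clusters. The cluster led by Stra8, which retinoic acid induces before meiosis, and by Prdm9, the methyltransferase that places meiotic breaks, held Sohlh1 at 19.4, 29.9 and 20.3 CPM. In the cluster led by Elavl3, Rad51ap2 and Meiob it was at 0.322, 0.391 and 0.603 CPM from 1 to 3 UMIs. Elongating spermatids, which hold far more UMIs in all, had 56, 70 and 210 Sohlh1 UMIs, or 2.66, 3.05 and 5.34 CPM, the highest value being that of the library labelled knockout. The clusters of very few UMIs held a further 33, 32 and 97.

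The other 2 transcription factor genes behaved differently. Etv5 had only 4, 7 and 13 UMIs in spermatogonia-like cells, 1.51 CPM (0.411 to 3.87), 2.36 CPM (0.948 to 4.86) and 3.46 CPM (1.84 to 5.92). Early spermatocytes held 3.06, 2.11 and 2.58 CPM, within those intervals, so the order of the 2 classes is not given by these counts. Etv5 also shares 21.3% of the 31-base words of its last 500 transcript bases with the gene model Gm4798, so part of its reads may have been assigned elsewhere or dropped. Its highest level was in the Sertoli-like cells, at 101, 91.3 and 121 CPM in 13, 10 and 34 cells. Leydig-like cells had 60.6, 23.6 and 33.5 CPM and peritubular myoid-like cells 19.4, 21.2 and 24.5 CPM of Etv5. The few counts of the spermatogonia-like cells therefore stood beside a far higher level in somatic cells.

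Id4 was at 6.80, 12.5 and 10.6 CPM in spermatogonia-like cells, with intervals of 4.03 to 10.7, 8.78 to 17.2 and 7.61 to 14.5, the lowest or second lowest of the germ cell classes. Round spermatids had 21.4, 19.1 and 20.8 CPM of Id4 and elongating spermatids 11.9, 10.2 and 10.9 CPM, the latter not separable from spermatogonia-like cells by their intervals in any library. Spermatocytes were well above: early ones held 102, 71.1 and 64.7 CPM and late ones 87.5, 80.9 and 79.9 CPM. Within early spermatocytes the Stra8 and Prdm9 cluster had 7.06, 6.46 and 5.54 CPM of Id4, as little as spermatogonia-like cells, and the Elavl3, Rad51ap2 and Meiob cluster 137, 102 and 84.0 CPM. The highest Id4 level was in an unnamed cluster led by Stambp, Adad2 and Piwil1, at 226, 225 and 194 CPM in 225, 327 and 234 cells. Id4, the gene used to mark stem cells in reporter mice, thus had a higher CPM in late spermatocytes than in spermatogonia-like cells in each library. These levels rest on 2276, 1653 and 2462 UMIs and on 18, 37 and 40. Late spermatocytes hold far more UMIs in all, so the UMI numbers themselves are not a comparison of level. Id4 overlaps 2 gene models of the annotation, A330033J07Rik and Gm49291, whose part in these counts was not tested.

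Of the RNA-binding protein genes, Lin28a was at 17.0 CPM (45 UMIs), 13.1 CPM (39) and 19.4 CPM (73) in spermatogonia-like cells and at 0.518 CPM or less in each other germ cell class. Early spermatocytes had 0, 0 and 2 Lin28a UMIs. Nanos3 was at 12.8, 13.1 and 13.6 CPM in spermatogonia-like cells, a spread of under 1 CPM between libraries. Elongating spermatids came next with 1.85, 1.70 and 2.37 CPM of Nanos3, so that the spermatogonia-like level was 6.61, 7.73 and 5.74 times as high. Nanos3 was at 0.707 CPM or less in early spermatocytes and was counted again at 0.962, 0.930 and 1.59 CPM in late ones. The microRNA genes Mir181c and Mir181d overlap Nanos3 on the same strand, and their part in its counts was not tested.

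Kit, the receptor of differentiating spermatogonia, was at 123 CPM in wildtype replicate 1 (110 to 137), 92.7 CPM in wildtype replicate 2 (82.0 to 104) and 106 CPM in the library labelled knockout (96.3 to 117) in spermatogonia-like cells. The 2 wildtype libraries lay at the ends of that range, with intervals that did not overlap, and the library labelled knockout lay between them. Early spermatocytes had 11.6, 17.9 and 8.63 CPM, nearly all of it in the Stra8 and Prdm9 cluster, where Kit was at 40.6, 51.7 and 32.7 CPM. In the other early spermatocyte cluster it was at 0.965, 1.56 and 0.804 CPM. In late spermatocytes Kit was at 0.0769, 0.196 and 0.260 CPM from 2, 4 and 8 UMIs, and in round spermatids it was counted again at 5.15, 4.54 and 3.51 CPM. The order from spermatogonia-like cells over the Stra8 and Prdm9 cluster to late spermatocytes was the same in each library.

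**Figure D1:**
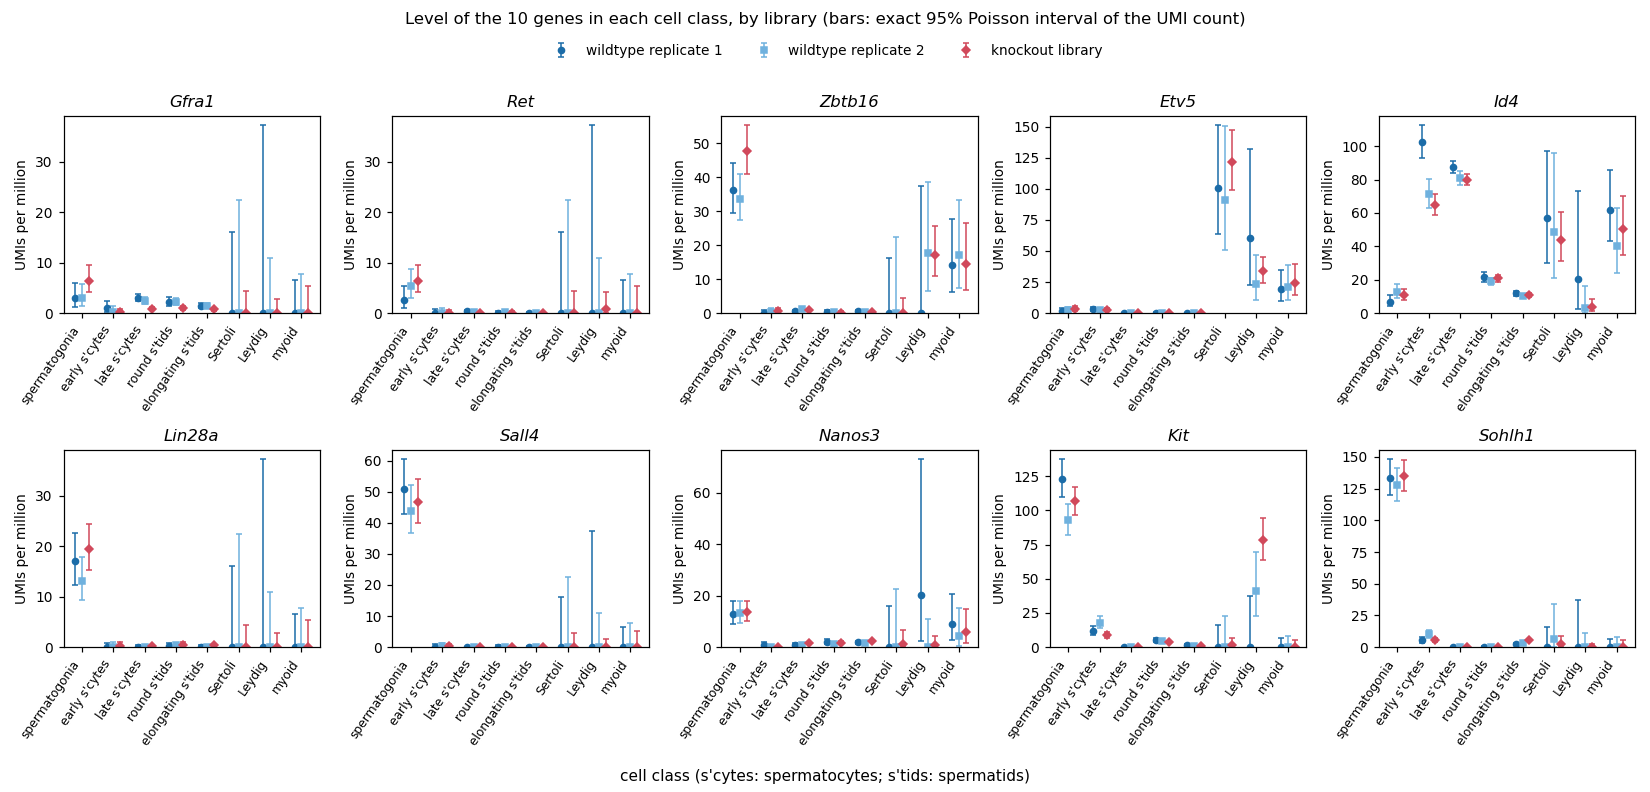
Level of each of the 10 genes in CPM (vertical axis) in the germ cell and somatic classes, 1 point per library with its exact 95% Poisson interval. Sall4, Lin28a and Zbtb16 were near 0 in the germ cell classes beyond spermatogonia-like cells, whereas Id4 was highest in spermatocytes among the classes drawn and Etv5 in Sertoli-like cells.

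Somatic cells held a few of the factors. Leydig-like cells had 0, 14 and 105 Kit UMIs, 41.4 CPM in wildtype replicate 2 and 78.1 CPM in the library labelled knockout. The 33 Leydig-like cells of wildtype replicate 1 held 99092 UMIs, and a count of 0 there allows up to 30.3 CPM. Zbtb16 had 14.1, 16.9 and 14.4 CPM in peritubular myoid-like cells, and in Leydig-like cells 0, 17.7 and 17.1 CPM. Peritubular myoid-like cells also had 61.8, 40.2 and 50.4 CPM of Id4. Their Nanos3 level was 8.82, 4.24 and 5.76 CPM, on few counts and above that of the germ cell classes other than spermatogonia-like cells. Gfra1, Ret, Lin28a, Sall4, Sohlh1 and Kit had 0 UMIs in the 94, 95 and 94 peritubular myoid-like cells, which allows up to 5.29, 6.36 and 4.32 CPM.

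Of the 2 ligand genes, Gdnf was scarce and Kitl was not. Gdnf, whose product binds GFRA1 and RET, had 7, 3 and 12 UMIs in peritubular myoid-like and 3, 0 and 6 in Sertoli-like cells. Kitl, which encodes the KIT ligand, was at 179, 97.4 and 171 CPM in Sertoli-like and 212, 139 and 129 CPM in Leydig-like cells. In peritubular myoid-like cells Kitl was at 12.4, 16.9 and 72.0 CPM from 7, 8 and 50 UMIs. By the rule of size explained with the comparison of libraries below, Kitl was higher there in the library labelled knockout, in a class where 2.23% of 8249 genes were higher by that rule, against 0.4% and 0.655% with wildtype replicate 1 or 2 put in its place. The number of Leydig-like cells, which hold more Kitl, moved the same way, at 33, 57 and 97 cells, and its part in this value was not tested.

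Spermatogonia-like cells were then clustered again, also without the 10 genes, into 6 sub-clusters. The 1 that summed highest over a list of 28 other genes of undifferentiated spermatogonia is called here, after 2 of its 5 leading genes, the Upp1 and Ccnd2 sub-cluster (the others were Foxf1, Sdc4 and Large2). Upp1 encodes uridine phosphorylase and Ccnd2 cyclin D2. It held 23, 28 and 27 cells, or 10.4% (6.68 to 15.1), 9.03% (6.09 to 12.8) and 11.4% (7.68 to 16.2) of the spermatogonia-like cells, shares whose intervals overlapped. Its cells were the deepest, with a median of 16155 UMIs against 6769 to 13871 in the other sub-clusters. The list summed to 1336 CPM in it and to 409 to 644 CPM in the others. Early spermatocyte markers summed to 802, 741 and 1111 CPM in it, less than in the whole class. This was not particular to it, since the sub-cluster led by Hk2 and Lgalsl had 869, 758 and 851 CPM of these markers.

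In each library 9 of the 10 genes were at their highest in this sub-cluster, all but Kit, against 7.14% of the 21019 genes that reached 1 CPM in a sub-cluster. The sub-cluster was picked for genes known to accompany the members, so the count describes the cells and is no independent support. The sub-cluster was then set against the other spermatogonia-like cells by a rule of a 2-fold difference in each library, for genes that reached 20 CPM in either group. Of the 8566 such genes 6.13% were higher and 4.76% lower. Zbtb16, Sall4 and Sohlh1 were higher and Kit lower, and each of these 4 was above 20 CPM in the other cells too. Gfra1, Ret, Id4, Lin28a and Nanos3 reached 20 CPM only through the sub-cluster, so that minimum set their direction and their number is no support.

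By the share of positive cells that lay in the sub-cluster, the receptors of GDNF were the most confined, on 6 to 14 cells per library. In wildtype replicate 2 Ret, at 91.7%, was little above Nanos3, at 87.5%. Gfra1 was at 21.8, 20.8 and 44.8 CPM, with intervals of 9.42 to 43.0, 9.51 to 39.5 and 28.7 to 66.7, in the Upp1 and Ccnd2 sub-cluster. None of the other 199, 282 and 209 spermatogonia-like cells held a Gfra1 UMI, which allows up to 1.31, 1.18 and 0.931 CPM, a limit of 3 counts per library. The lower ends of the sub-cluster's intervals lay above those limits. A count of 0 does not limit the share of cells that express the gene at a lower level, since most Gfra1-positive cells held 1 UMI. Cells with a Gfra1 UMI numbered 6, 7 and 11, and held a median of 5 of the other 9 genes in each library. Ret was at 16.4, 34.6 and 43.0 CPM in the sub-cluster, from 6, 15 and 23 UMIs, and had 1 UMI in each library elsewhere, each time in the sub-cluster led by Hk2 and Lgalsl. Of the cells with a Ret UMI, 5 of 6, 11 of 12 and 13 of 14 were in the Upp1 and Ccnd2 sub-cluster.

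Nanos3 came next, at 70.9, 83.1 and 78.4 CPM in the sub-cluster and 3.51, 1.18 and 2.79 CPM in the other spermatogonia-like cells. Lin28a was at 62.7, 41.6 and 71.0 CPM in it, and at 24.5, 24.3 and 27.0 CPM in the Hk2 and Lgalsl sub-cluster. In the sub-cluster led by Prss50 and Rec8, that led by histone genes such as Hist1h2ba, and that led by Nusap1 and Cdk1, Lin28a had 0 UMIs in each library. The sub-cluster led by Upb1 and Ccne1 held 0, 2 and 0. Lin28a therefore marked the Upp1 and Ccnd2 and the Hk2 and Lgalsl sub-clusters, with the first above the second in each library. In the Prss50 and Rec8 sub-cluster a count of 0 allows up to 8.17, 7.23 and 8.0 CPM.

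Zbtb16 and Sall4 spread further. Zbtb16 was at 120, 113 and 172 CPM in the Upp1 and Ccnd2 sub-cluster, at 32.2, 29.5 and 36.3 CPM in the Hk2 and Lgalsl sub-cluster and at 10.9, 4.82 and 0 CPM in the Prss50 and Rec8 sub-cluster. Sall4 was at 177, 115 and 125 CPM in the first, 53.4, 58.9 and 56.3 CPM in the second and 10.9, 4.82 and 10.7 CPM in the third. Both thus had the same order of these 3 sub-clusters in each library. Id4 was at 27.3, 34.6 and 39.2 CPM in the Upp1 and Ccnd2 sub-cluster and 3.51, 8.68 and 5.90 CPM in the other spermatogonia-like cells. Etv5 was at 8.18, 13.9 and 14.9 CPM in it from 3, 6 and 8 UMIs, too few for the rule of size, and 0.438, 0.394 and 1.55 CPM in the others.

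Sohlh1 was highest in the Upp1 and Ccnd2 sub-cluster too, at 262, 231 and 245 CPM against 113, 110 and 117 CPM in the other spermatogonia-like cells. It reached 163, 143 and 166 CPM in the Upb1 and Ccne1 sub-cluster and 131, 152 and 144 CPM in the Hk2 and Lgalsl sub-cluster. Lower values were those of the Prss50 and Rec8 sub-cluster, 65.4, 96.4 and 56.0 CPM, and of the histone gene sub-cluster, 104, 74.5 and 61.8 CPM. Its partner Sohlh2 was at 38.2, 48.5 and 33.6 CPM in the Upp1 and Ccnd2 sub-cluster and 48.9, 46.1 and 61.0 CPM in the Hk2 and Lgalsl sub-cluster, with no common order. Kit ran the other way. It was at 30, 20.8 and 28.0 CPM in the Upp1 and Ccnd2 sub-cluster and at 138, 105 and 120 CPM in the other spermatogonia-like cells, with its highest value, 161, 138 and 152 CPM, in the Hk2 and Lgalsl sub-cluster.

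**Figure D2:**
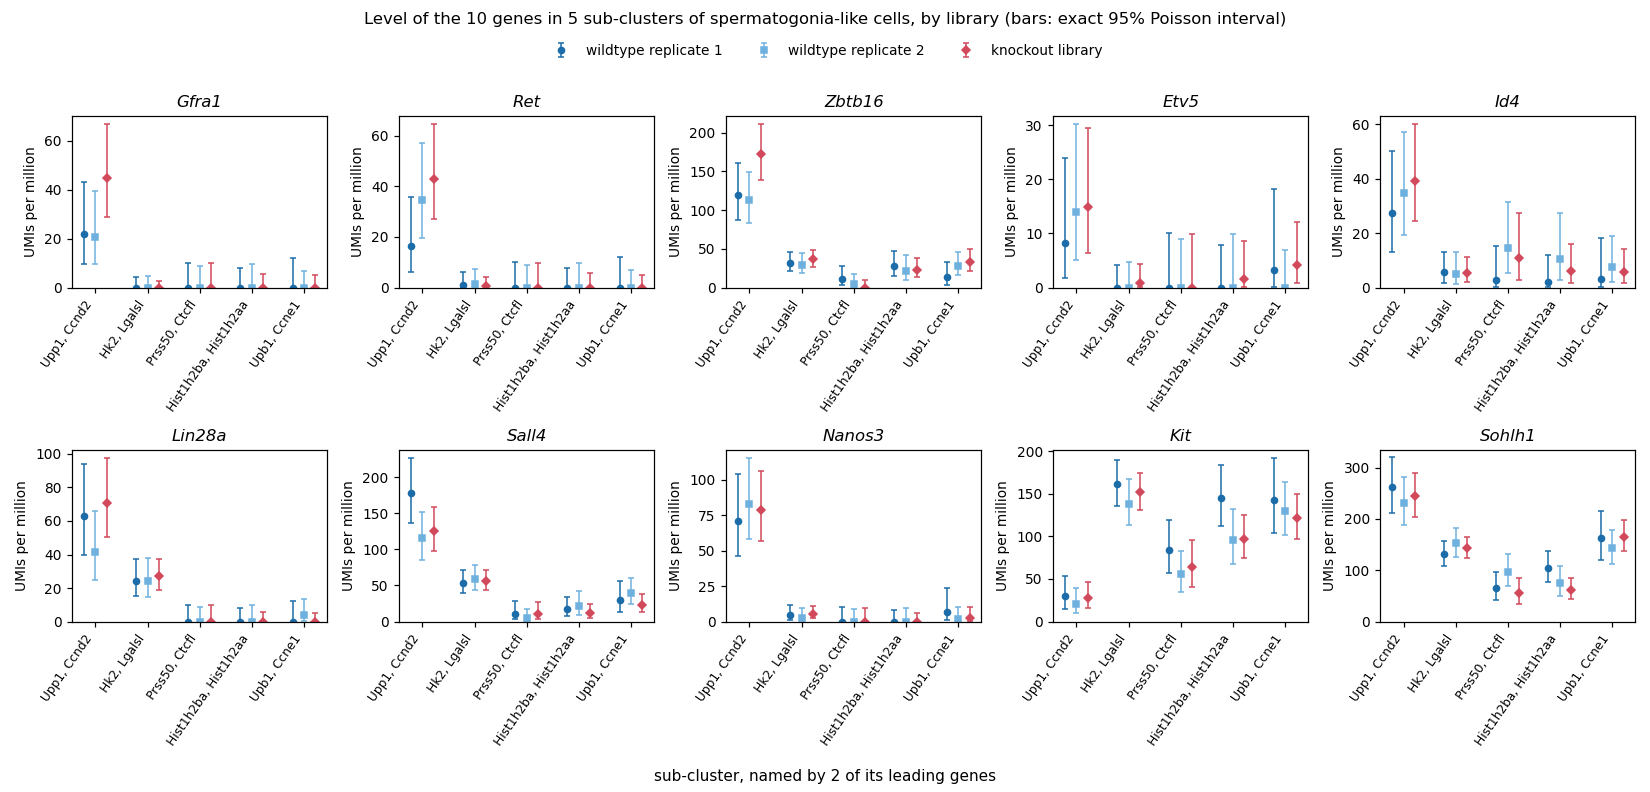
Level of each gene in CPM (vertical axis) in 5 spermatogonia sub-clusters, those of 15 or more cells in each library, named on the horizontal axis by 2 leading genes, 1 point per library with its exact 95% Poisson interval. 9 genes peaked in the Upp1 and Ccnd2 sub-cluster in each library, and Kit was at its lowest there (30, 20.8 and 28.0 CPM).

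The sub-cluster's share of the cells positive for a gene orders the 10 genes from narrow to broad. All Gfra1-positive cells lay in it, and 63.6%, 87.5% and 64.0% of the 22, 24 and 25 Nanos3-positive ones. For Etv5 the shares were 66.7%, 85.7% and 58.3% of 3, 7 and 12 cells. Lin28a followed with 41.4%, 37.0% and 50%, Id4 with 53.3%, 32.3% and 34.5%, Zbtb16 with 31%, 34.4% and 30.2% and Sall4 with 22.1%, 29.5% and 23.7%. Neighbours in this order, such as Lin28a and Id4, changed places between libraries. Sohlh1-positive cells were in the sub-cluster at 14.9%, 14.8% and 14.5%, little above its share of all spermatogonia-like cells, and Kit-positive cells at 4.35%, 2.80% and 4.58%, below it. The Upp1 and Ccnd2 cells hold more UMIs each, which raises the chance of a positive call there, and yet Kit was detected in 26.1%, 14.3% and 25.9% of them, less often than in the shallower rest.

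**Figure D3:**
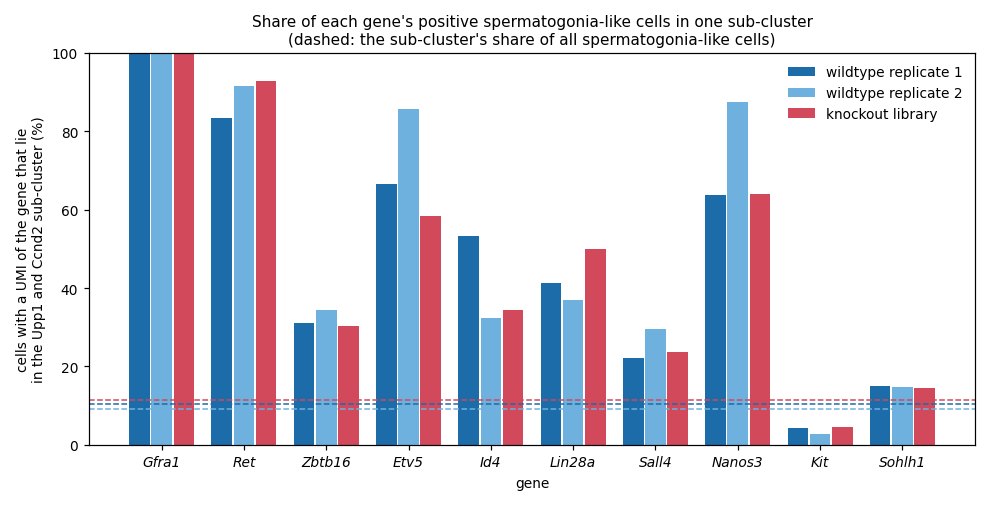
Share of the spermatogonia-like cells with a UMI of each gene that lay in the Upp1 and Ccnd2 sub-cluster, in percent, 1 bar per library, with dashed lines at the sub-cluster's share of all spermatogonia-like cells. Gfra1 is at 100% in each library and Kit at 4.58% or less.

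The 4 gene lists set beside the members gave these counts in the Upp1 and Ccnd2 sub-cluster against the other spermatogonia-like cells. They are a description, since a gene could reach 20 CPM through the group where it is high. The 28 other genes of undifferentiated spermatogonia picked the sub-cluster, so nothing is read from their being high in it. Those past the rule were Egr4, Sox3, Upp1, Itga6, Tspan8, Ccnd2, Utf1 and Tcl1. Upp1 was at 68.2, 83.1 and 63.5 CPM there, with 1, 1 and 0 UMIs in the other spermatogonia-like cells. Of 11 differentiating-spermatogonia genes tested, none was higher and 3 were lower (Dmrtb1, Ccnd1 and Rhox13), with a median log2 ratio of -0.37 against -0.19 over all genes tested. Stra8, one of the 11, did not have 1 direction. It was at 475, 333 and 199.9 CPM in the sub-cluster and 174, 233.5 and 277 CPM in the other spermatogonia-like cells, log2 ratios of 1.45, 0.51 and -0.47, so that it was higher in the sub-cluster in both wildtype libraries and lower in the library labelled knockout. The difference between the libraries was not tested. Of 13 partners of the GDNF and KIT receptors tested, 3 were higher: the phosphoinositide 3-kinase subunit genes Pik3r1 and Pik3cd, and Etv4, the close relative of Etv5 (median 0.32). Of 9 cell division genes, 1 was lower (Rrm2, a subunit of ribonucleotide reductase), median -0.75. Nanos2, a stem cell RNA-binding protein, had 1, 2 and 1 UMIs in all spermatogonia-like cells, each of them in this sub-cluster.

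Whether the genes were counted in the same cells was asked next. Detection depends on depth, so cells were thinned to 5000 UMIs, which left 215, 252 and 233 cells and dropped 7, 58 and 3 shallower ones. Of the 45 pairs, 21 were expected in at least 1 cell in each library from the shares of the 2 genes alone. In each library 11 of the 21 were found together more often than expected and 4 less often, and the other 6 differed in direction between libraries. Over all gene pairs so measured 15.8% were above and 14.5% below in each library. Without thinning 31 pairs had a value and 23 were above, where 40.8% of all pairs were, since deeper cells hold more of every gene.

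Zbtb16 and Nanos3 had the largest excess, with 3.17, 3.38 and 3.20 times the expected number of double-positive cells. Before thinning, 15 of 22, 17 of 24 and 22 of 25 Nanos3-positive cells also held Zbtb16. Zbtb16 was in excess with Lin28a at 2.30, 2.17 and 2.79 times the expected number and with Sall4 at 2.15, 1.93 and 1.66 times. Sall4 was in excess with Nanos3 at 2.11, 2.67 and 2.27 times and with Lin28a at 1.97, 1.95 and 2.02 times. These 4 genes of undifferentiated spermatogonia thus met in the same cells in each library, except that Lin28a with Nanos3 was expected in under 1 cell and has no value. Sohlh1 was above expectation with 5 of its 8 measured partners, by less, such as 1.24, 1.28 and 1.30 times with Zbtb16.

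Kit was above the expected number with none of its 7 measured partners and below it with 4 in each library. It was found with Nanos3 at 0.477, 0.0715 and 0.372 times the expected number, and with Ret at 0, 0.136 and 0.599 times. Only 3.80, 4.10 and 3.35 cells were expected with Nanos3, and 1.02, 1.81 and 1.99 with Ret. These ratios therefore rest on very few cells and their size is uncertain. With Id4 the values were 0.390, 0.974 and 0.700, and with Zbtb16 0.819, 0.876 and 0.875. The small shortfall with Zbtb16 turned with the setting: without thinning the values were 1.08, 1.03 and 1.06. Kit and Sohlh1 met near the expected number, at 0.981, 1.04 and 0.963 times, with no common side. Gfra1 was too rare for a thinned value with any gene but Sohlh1 (0.848, 1.01 and 0.855 times). Before thinning, 5 of 6, 5 of 7 and 10 of 11 Gfra1-positive cells held Zbtb16, and 1, 3 and 8 of them held Ret.

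**Figure D4:**
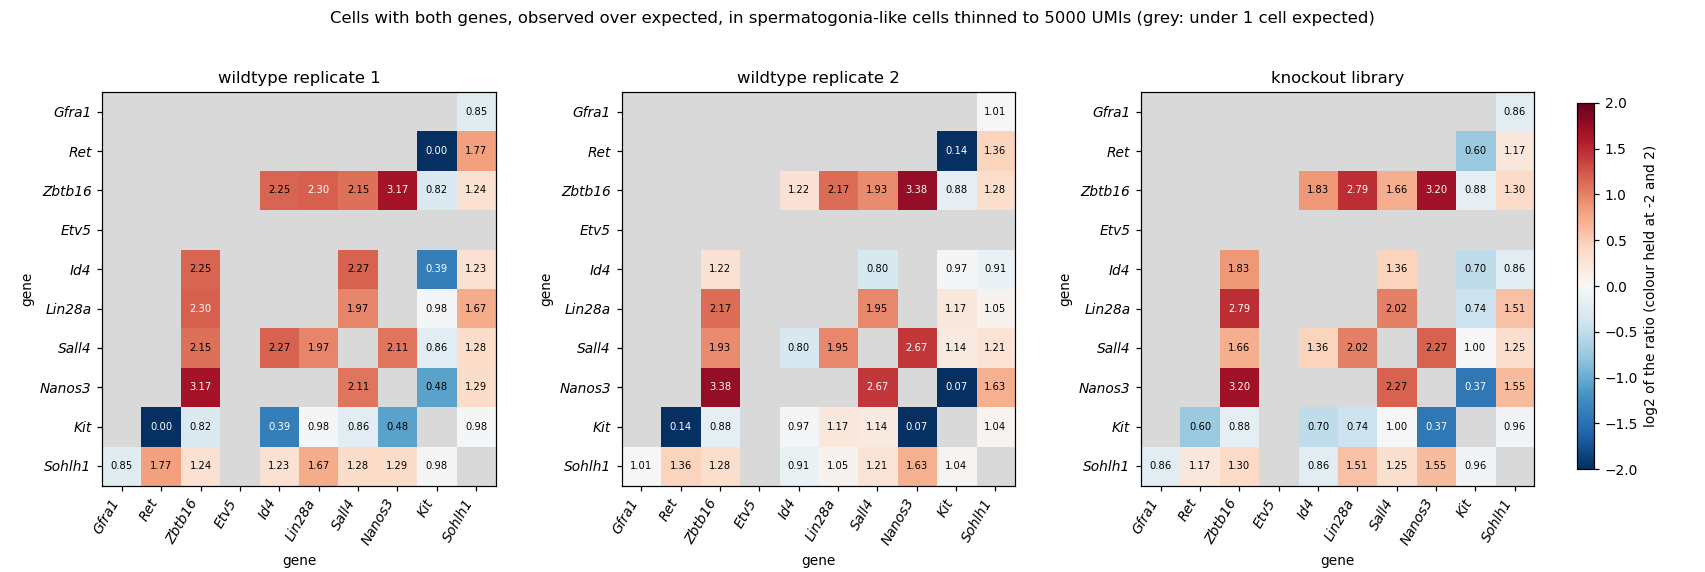
Number of spermatogonia-like cells with UMIs of both genes over the number expected from the 2 shares, after thinning to 5000 UMIs, 1 panel per library, with genes on both axes and grey where under 1 cell is expected. Pairs of Zbtb16, Sall4, Lin28a and Nanos3 are above 1 in each library, except Lin28a with Nanos3, which is grey, and pairs of Kit with Nanos3, Ret, Id4 and Zbtb16 below 1 in each library.

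Within the Upp1 and Ccnd2 sub-cluster alone, 19 thinned pairs had a value, with a median of 1.01 times the expected number. There 3 pairs were above in each library, where 14.1% of all pairs were, and 2 below, where 11.8% were. In the other sub-clusters 10 pairs had a value, 7 of them above (background 15.1%) and 1 below (13.8%), with a median of 1.18. Kit was in 4 of those 7, with Zbtb16 (1.13, 1.14 and 1.30 times), Lin28a (1.54, 1.55 and 1.23), Sall4 (1.02, 1.34 and 1.21) and Sohlh1 (1.04, 1.10 and 1.02). The shortfall of Kit with Zbtb16 over all spermatogonia-like cells was thus an excess once the Upp1 and Ccnd2 cells, where Kit is low, were set aside. That of Kit with Id4 had no common side there (0.715, 1.295 and 0.962 times). Kit with Nanos3 and Kit with Ret had no value outside the sub-cluster.

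The question of the study, set on these genes, is whether spermatogonia of the library labelled knockout held more or less of each. A gene was called by a rule of size: at least a 2-fold difference (log2 ratio of 1, with 1 CPM added) from each wildtype library in the same direction, with the smaller ratio 2 times or more that of the wildtype pair, and 20 CPM or more in 1 library. In spermatogonia-like cells 4 members reached 20 CPM (Zbtb16, Sall4, Kit and Sohlh1). None of the 4 was called, and 0.352% of 7391 genes were. With wildtype replicate 1 put in the place of the library labelled knockout 0.0541% of genes were called. With wildtype replicate 2 in its place the count was 0.

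Zbtb16 came to 36.2 and 33.7 CPM in the wildtype libraries and 47.6 CPM in the library labelled knockout, which was the highest. Its log2 ratios were 0.39 and 0.49, against -0.10 between the wildtype libraries, and the intervals of 40.9 to 55.2 CPM in the library labelled knockout and 29.4 to 44.3 and 27.4 to 41.0 CPM in the wildtype libraries overlapped. After thinning, 13.0%, 12.6% and 15% of cells held Zbtb16. Sall4 gave log2 ratios of -0.13 and 0.09, Kit of -0.21 and 0.20, and Sohlh1 of 0.02 and 0.08. Of these, Sall4 and Kit in the library labelled knockout lay between the wildtype libraries, and Sohlh1, at 135 CPM, was above both by less than the width of its interval (123 to 147 CPM).

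In spermatogonia-like cells the shares of cells positive for Kit and Sohlh1 followed the depth of the libraries. Not all members did so: for Ret, Id4 and Etv5 the shallower wildtype replicate 2 had the larger share of the 2 wildtype libraries. These were 3.87% against 2.70%, 10.0% against 6.76% and 2.26% against 1.35%. Kit was detected in 62.2%, 46.1% and 64.8% of spermatogonia-like cells as deposited and in 41.2%, 34.2% and 36.8% after thinning. Sohlh1 went from 63.5%, 52.3% and 69.9% to 42.0%, 40.6% and 40.8%. In elongating spermatids 2.00%, 1.17% and 1.68% held a Kit UMI at a median of 12074, 9538 and 18167 UMIs per cell. After thinning 0.765%, 0.590% and 0.371% of them did, far below the spermatogonia-like shares. Whether those UMIs were free RNA or the spermatids' own was not tested. A Gfra1 UMI was held by 2.70%, 2.26% and 4.66% of spermatogonia-like cells and 2.00%, 1.60% and 1.73% of elongating spermatids. After thinning the Gfra1 shares were 1.46%, 1.01% and 2.25% against 0.715%, 0.507% and 0.347%, higher in spermatogonia-like cells in each library, on a few cells.

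The 6 members below 20 CPM were described without the rule. Gfra1 had log2 ratios of 0.88 and 0.87 and 0.00 between the wildtype libraries, and was higher in the library labelled knockout by 24 UMIs against 8 and 9, with overlapping intervals. Within the Upp1 and Ccnd2 sub-cluster alone the log2 ratios of Gfra1 were 1.01 and 1.07, in fewer than 50 cells per library, the minimum for the rule, and its intervals again overlapped (28.7 to 66.7 CPM against 9.42 to 43.0 and 9.51 to 39.5). Ret gave log2 ratios of 1.02 and 0.21, with 0.81 between the wildtype libraries, and Etv5 of 0.83 and 0.41, with 0.42 between them. For Ret the wildtype libraries differed by most of the larger ratio. Lin28a gave 0.18 and 0.53, Id4 0.58 and -0.21, and Nanos3 0.07 and 0.04. Gfra1 was the only member whose 2 ratios were both above 0.8 and which hardly differed between the wildtype libraries. The mark of 0.8 is not part of the rule, and how many of all genes at such low counts meet it was not counted.

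**Figure D5:**
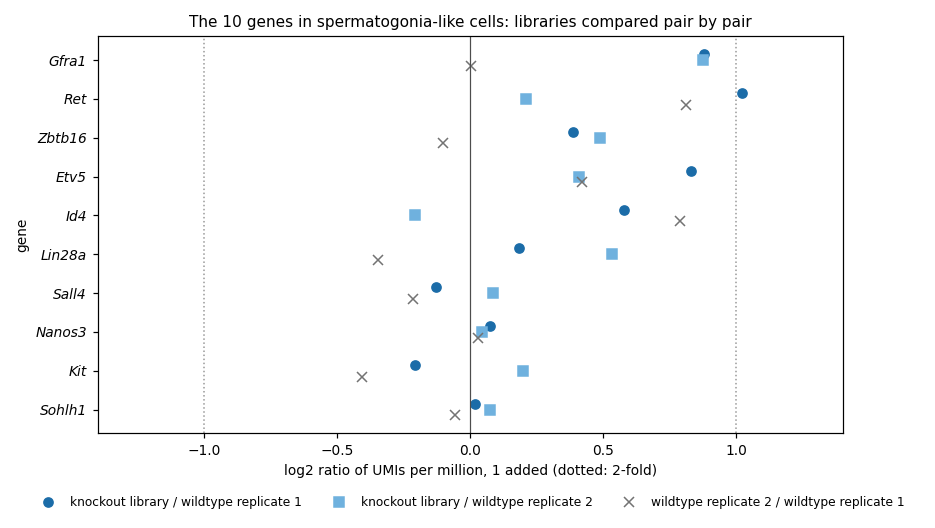
Log2 ratio of CPM, 1 added, in spermatogonia-like cells (horizontal axis) for each gene: the library labelled knockout over each wildtype library, and wildtype replicate 2 over replicate 1. The dotted lines mark 2-fold, which no gene passed against both wildtype libraries, and Gfra1 sat at 0.88 and 0.87.

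In other classes few members had enough counts. Id4 did in early spermatocytes, late spermatocytes, round spermatids and the unnamed cluster, where it was not called, and where 0.214%, 0.939%, 1.21% and 0.444% of genes were. In early spermatocytes the highest Id4 level was that of wildtype replicate 1, 102 CPM, and the other 2 libraries were at 71.1 and 64.7 CPM. In peritubular myoid-like cells Etv5 and Id4 were tested and not called, where 3.94% of genes were. None of the 4 lists had a called gene in spermatogonia-like cells either. Of the other genes of undifferentiated spermatogonia 9 of 28 were tested with a median log2 ratio of -0.08, of the differentiating genes 11 of 12 with -0.01, of the receptor partners 8 of 25 with 0.16, and of the cell division genes 9 of 9 with -0.06. The median of the 4 members tested was 0.01, and that of all genes tested -0.01.

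Likeness of pattern was measured over 27 profiles, each a spermatogonia sub-cluster or another germ cell class of 1 library, as Pearson's r of log2 levels among 11776 genes. The profiles share libraries and depth, so r describes and tests nothing. Ret was most like Ccnjl (0.991) and Upp1 (0.984), Sohlh1 like Uchl1 (0.990), Kit like C1d (0.977) and Suclg2 (0.973), and Lin28a like 2900041M22Rik (0.976) and Sall1 (0.971). Zbtb16 was most like Dctd (0.964), Sall4 like Sri (0.973), Nanos3 like Runx1 (0.950), Gfra1 like Tspan8 (0.919), Id4 like Dnah7b (0.909) and Etv5 like Fkbp11 (0.862). Among the members themselves the closest were Zbtb16 with Sall4 (0.944), Sall4 with Sohlh1 (0.931) and Ret with Nanos3 (0.908), and Id4 with Kit was the least alike (-0.674).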

How the data were processed

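Single-cell 3′ RNA libraries of 2 wildtype mice and of 1 pool of 2 conditional Tex10 knockout mice were analysed. Each deposited matrix holds unnormalized UMI counts, produced with Cell Ranger 4.0.0 per the file headers. The submitters' processing notes also name Seurat 4.0.5 and the genome build mm10, which is GRCm38. Whether counting used the strand is not given in the sources used here. The members and gene lists were chosen with earlier results of these data known.

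Barcodes with at least 1000 UMIs, 500 genes and at most 10% mitochondrial UMIs were kept. Scrublet in scanpy 1.11.5 marked 0, 1 and 0 doublets by its own threshold, so the top 8% of scores were left out instead (650, 666 and 961 barcodes). Cells were clustered together (2000 variable genes without the members, 30 principal components, 15 neighbours, Leiden resolution 1, leidenalg 0.10.2, igraph 0.11.9). Names needed 3 detected markers, and no more leading genes among the markers of another type than among their own. The cluster called unnamed failed the second of these and was deep, with a median of 38064 UMIs. Clusters whose median UMI total was under 3 times the lowest deposited total are those called of very few UMIs, and were put in no class. Spermatogonia-like cells were clustered again (1000 variable genes, 15 components, resolution 0.5); a sub-cluster with under 15 cells in a library was described only for zero counts.

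Levels are UMIs summed per library and class, per 1000000 (CPM), with exact Poisson intervals, and shares have exact binomial intervals (scipy 1.17.1, numpy 2.4.6). Only classes of 50 or more cells per library entered the size rule of 2-fold and 20 CPM given in the results. Co-detection was computed from the expected outcome of thinning each cell to 5000 UMIs. The scripts were tested on simulated data. Named were the members, the 2 genes most like each, leading genes of each sub-cluster (from the top 5; 1 is not reported here), list genes passing the rule and Gdnf, Kitl, Sohlh2 and Stra8. Genes leading other clusters, Tex10, Upp1, Ccnd2 and Nanos2 were named after their values were seen. Alternatives covered filters, doublets, resolution, scaling, thresholds and each wildtype library left out.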

Additional observations from a re-analysis of the deposited data

Results flagged for a closer look

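Stra8, which retinoic acid induces at the start of differentiation, moved in opposite directions between the wildtype libraries and the library labelled knockout when the Upp1 and Ccnd2 sub-cluster was set against the other spermatogonia-like cells. Its log2 ratios were 1.45 and 0.51 for wildtype replicates 1 and 2, against -0.47 for the library labelled knockout. The sub-cluster held 23, 28 and 27 cells, in which Stra8 was at 475 CPM (407 to 551), 333 CPM (280.5 to 391.5) and 199.9 CPM (164 to 241.5). With 1 library in the knockout group the difference was not tested.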

How the results depend on the processing

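None of the 10 genes passed the size rule in spermatogonia-like cells in any of the settings run. These were other UMI limits, doublets kept, resolution 1.5, low-UMI clusters named, per-cell means, size factors, 5 CPM added, no minimum level, a 1.5-fold threshold and each wildtype library left out. Where the 20 CPM minimum was kept, members below it, such as Gfra1, could not pass whatever their ratio. In the main setting only 4 members reached it. The run with no minimum level put all 10 to the 2-fold rule. The number of all genes passing, 26, came to 234 with no minimum level, to 90 at 1.5-fold and to 45 to 54 with 1 wildtype library left out, and all 26 were among them each time. It was 23 to 29 in the other settings. The genes highest in spermatogonia-like cells were 8 of 10, and 7 to 9 in the alternatives. The 11 pairs found together more often than expected came to 5 after thinning to 3000 UMIs (16.2% of all pairs above) and to 23 without thinning, where depth enters. The 9 genes highest in the Upp1 and Ccnd2 sub-cluster were 9 again at a finer resolution of 1, with 4.49% of all genes. When cells were split by a Stra8 UMI in place of sub-clusters, 5 were highest in the cells without one. These were Gfra1, Ret, Etv5, Id4 and Nanos3, with 15.7% of all genes. Sall4, Lin28a and Kit were instead higher in the cells with a Stra8 UMI in each library. Sall4 was at 69.2, 50.4 and 54.4 CPM there, against 33.4, 36.0 and 36.5 CPM. In both the finer resolution and the Stra8 split the group was again the one highest in the undifferentiated list, so these counts are no independent support. The log2 ratio to the wildtype mean lay between 0.50 and 1.32 for Gfra1, 0.209 and 1.062 for Ret, and 0.287 and 1.025 for Etv5. The highest value of each came from per-cell means and was past 2-fold against the wildtype mean. The ratio changed sign for Id4, Sall4, Nanos3 and Kit in 1 or 2 of 12 settings. No paired analysis was possible because the labels give a single library in the knockout group and pair no mice. Counts limit Gfra1, Ret and Etv5 most, at 4 to 24 UMIs per library in spermatogonia-like cells.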

Other observations

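Gfra1 was also counted late in the germ line, where it lay under the minimum level of the size rule. In the late spermatocyte cluster led by Pou5f2 it was at 3.74, 2.65 and 0.881 CPM in wildtype replicate 1, wildtype replicate 2 and the library labelled knockout. These levels rest on 68, 36 and 22 UMIs, with intervals of 2.91 to 4.75, 1.86 to 3.67 and 0.552 to 1.33 CPM. Round spermatids held 2.14, 2.18 and 0.920 CPM of Gfra1 and elongating spermatids 1.38, 1.35 and 0.763 CPM. The library labelled knockout was the lowest of the 3 in each of these classes, and the highest in spermatogonia-like cells. The antisense gene model Gm16277 overlaps Gfra1, and its part in these counts was not tested.

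Nanos3 was highest in the library labelled knockout in that cluster, at 0.716 CPM (0.381 to 1.22), 0.663 CPM (0.303 to 1.26) and 1.24 CPM (0.843 to 1.76), with overlapping intervals.

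Outside the named classes, Kit was at 13.3 CPM (11.1 to 15.9) in barcodes of wildtype replicate 1 that the filters left out, and at 5.81 CPM (4.42 to 7.49) and 3.44 CPM (2.45 to 4.71) in those of wildtype replicate 2 and the library labelled knockout. In the clusters of very few UMIs Id4 was at 37.8, 43.2 and 40.3 CPM and Sall4 at 0.110, 0.25 and 0.342 CPM.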
